A study of Mus musculus with 9 samples.

Results

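The subunits of the interleukin 12 (IL-12) family were followed in mouse dendritic cells (DC) treated with either of 2 inhibitors of histone deacetylases. The family was taken as 5 genes, Il12a, Il12b, Il23a, Ebi3 and Il27, found by gene symbol among the probe sets that the platform annotation pairs with exactly 1 symbol. This gave 5 probe sets of 4 genes, out of 20380 such probe sets for 12393 genes and 22626 probe sets in all, controls aside. Il12b had 2 probe sets, Il12a, Il23a and Ebi3 had 1 each, and Il27 was not analysed here. Of these subunits, Il12b fell at least 11.0-fold with either inhibitor, while no change of the others in either treatment exceeded 1.41-fold on the deposited scale. Il12a and Il23a were low before treatment, at percentiles 28.0 to 41.0 of the untreated arrays. Of these other subunits only Ebi3 could thus have shown a like fall.

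The arrays fall into 3 groups of 3: untreated cells, cells treated with TSA (trichostatin A, a hydroxamic acid) and cells treated with butyrate (a fatty acid of short chain that colon bacteria produce from fibre). All 9 samples, the untreated ones included, were Flt3L-elicited DC from the spleens of mice aged 6 to 8 weeks that carried Flt3L-expressing B.16 tumors; Flt3L is the growth factor that expands DC. The cells were purified on CD11c magnetic beads, which enrich DC without removing every other CD11c-positive cell. The labels give neither dose, duration, mouse strain nor genotype, and leave unsaid whether replicates are separate mice or separate cultures. All p-values here thus reflect only how far these samples spread, and that spread may be technical.

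IL-12 family cytokines are secreted pairs of subunits, and pairs share subunits. Il12b encodes p40, which joins p35 (Il12a) to form IL-12, the cytokine that drives T helper 1 responses and interferon-gamma, or p19 (Il23a) to form IL-23, which sustains T helper 17 cells. Ebi3 joins p28 (Il27) to form IL-27 and can join p35 to form IL-35. DC are a main source of IL-12, which they make after Toll-like receptor or CD40 signals, and transcription of Il12b is driven by NF-kB (c-Rel in particular), C/EBP and interferon regulatory factors.

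In the reference gene table (GRCm38.p6) Il12b lies on chromosome 11 from 44400063 to 44414677, Il12a on chromosome 3 from 68690644 to 68698550, Il23a on chromosome 10 from 128296140 to 128298084 and Ebi3 on chromosome 17 from 55952623 to 55957022. They lie on 4 different chromosomes. The 250 bases before the annotated start (for Il12a, the first of 2) are shown for Il12b, the subunit that changed most, and for Ebi3 and Il12a, which changed little, because inhibitors of histone deacetylases act on gene control. They come from RefSeq (build GRCm38.p6, all on the plus strand) at chr11:44399813-44400062, chr17:55952373-55952622 and chr3:68690394-68690643, printed 5′ to 3′. Capitals mark matches to the motifs described next.
Il12b: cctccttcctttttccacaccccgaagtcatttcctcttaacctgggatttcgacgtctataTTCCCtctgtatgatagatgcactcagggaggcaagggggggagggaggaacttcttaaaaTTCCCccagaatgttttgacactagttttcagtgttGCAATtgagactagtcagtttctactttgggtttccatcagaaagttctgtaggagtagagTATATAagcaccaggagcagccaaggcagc
Ebi3: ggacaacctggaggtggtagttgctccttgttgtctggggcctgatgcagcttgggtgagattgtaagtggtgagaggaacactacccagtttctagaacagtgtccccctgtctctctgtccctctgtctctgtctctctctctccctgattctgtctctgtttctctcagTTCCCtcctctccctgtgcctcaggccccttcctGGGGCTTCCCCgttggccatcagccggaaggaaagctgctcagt
Il12a: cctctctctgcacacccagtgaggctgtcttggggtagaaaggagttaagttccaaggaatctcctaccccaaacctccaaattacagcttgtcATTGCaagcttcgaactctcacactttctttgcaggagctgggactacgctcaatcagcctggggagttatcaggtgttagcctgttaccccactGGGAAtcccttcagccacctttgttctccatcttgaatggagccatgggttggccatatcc

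The motifs searched were a long NF-kB motif (GGG and CC with any 5 bases between), a short NF-kB motif (GGGAA), a short C/EBP motif (ATTGC), an interferon response element (GAAA repeated after any 2 bases) and an AP-1 motif (TGANTCA), all on both strands, and a TATA box (TATANA) on the strand of the gene. The Il12b stretch held the short NF-kB motif at 188 and 127 bases and the short C/EBP motif at 91 bases before the start, each on the minus strand, and a TATA box at 30 bases. The Ebi3 stretch held overlapping matches to the long NF-kB motif from 44 and from 43 bases before the start, and the short one at 78 and 39 bases, the last inside the long match. The Il12a stretch held the short NF-kB motif at 61 bases and the short C/EBP motif at 156 bases. The stretch before a second annotated start of Il12a, at 68691424, is not shown; it held the long NF-kB motif at 113 and 112 bases and no short one. Among 32851 RefSeq promoter stretches of the same length, 45.8% held the long and 56.2% the short NF-kB motif, 23.1% the short C/EBP motif and 16.4% the TATA box. The interferon response element (2.98% of stretches) and the AP-1 motif (6.75%) had no match in the 3 stretches shown. A match here is a description of letters, not a measured binding site.

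Arrays of the same group correlated with r of 0.996 to 0.998 across probe sets, which are not independent replicates. The deposited log2 levels ran from 3.03 to 15.2, and their 25th percentile on each array lay between 4.97 and 5.09. Hybridization spike-ins are bacterial transcripts added at the hybridization step of every array. They averaged 10.6 ± 0.08 (SD, n = 3) without treatment on the log2 scale, 10.6 ± 0.03 after TSA and 11.0 ± 0.06 after butyrate. Scaling the arrays to equal spike-ins moved the median change of all probe sets with butyrate from 0.07 to −0.34. The share of higher among called probe sets moved from 56.7% to 8.53%. On that scale 15560 of 22626 probe sets were called lower with butyrate against untreated and 1451 higher. Set against TSA there, 17508 were called lower with butyrate and 157 higher, with a median of −0.35. With TSA against untreated the median moved from 0.02 to −0.01. Poly-A spike-ins, transcripts added before labelling, averaged 8.13 ± 0.27 (SD, n = 3) without treatment, 8.13 ± 0.14 after TSA and 8.44 ± 0.09 after butyrate. They spread more between arrays of a group than the hybridization spike-ins, and on their scale the median change with TSA stayed at 0.02. There 2344 of 22626 probe sets were called lower with TSA and 2265 higher, against 4395 and 5313 on the deposited scale. A TSA call lost on the poly-A scale thus does not mean a shifted change. With butyrate the median on that scale was −0.24, with 6351 probe sets called lower and 1096 higher. Changes are given on the deposited scale, that is, relative to the bulk of probe sets. Values on the spike-in scales are added for the members and for many counts over gene lists, but not for every count that differs.

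Il12b was the subunit with the largest change. Its brighter probe set (1419530_at) read 9.95, 9.89 and 9.80 in the untreated samples (log2 level, replicates 1 to 3), 5.86, 6.01 and 5.76 with TSA, and 5.42, 5.71 and 5.64 with butyrate. The untreated samples stood far above both treated groups, and no TSA sample overlapped a butyrate sample. The untreated mean was 9.88 ± 0.07 (SD, n = 3), against 5.88 ± 0.13 for TSA and 5.59 ± 0.15 for butyrate. The change with TSA was −4.00 ± 0.088 (limma standard error), a 16.0-fold fall (limma adjusted p = 3.08e-09). With butyrate it was −4.29 ± 0.088, a 19.6-fold fall (limma adjusted p = 1.38e-09).

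The dimmer Il12b probe set (1449497_at) gave the same directions. It read 9.01, 8.92 and 8.68 in untreated samples, 5.46, 4.77 and 5.58 with TSA, and 5.72, 5.14 and 5.36 with butyrate. Both treated groups again lay below every untreated sample, but the treated groups overlapped each other and spread more. The change was −3.60 ± 0.210 with TSA (12.2-fold lower, limma adjusted p = 4.65e-07) and −3.46 ± 0.210 with butyrate (11.0-fold lower, limma adjusted p = 4.36e-07). Among the 22626 probe sets the Il12b pair ranked 2 and 7 from the largest fall with TSA, and 4 and 20 with butyrate. In bulk RNA such as this, fewer cells that make Il12b and less Il12b RNA per cell cannot be told apart.

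**Figure D1:**
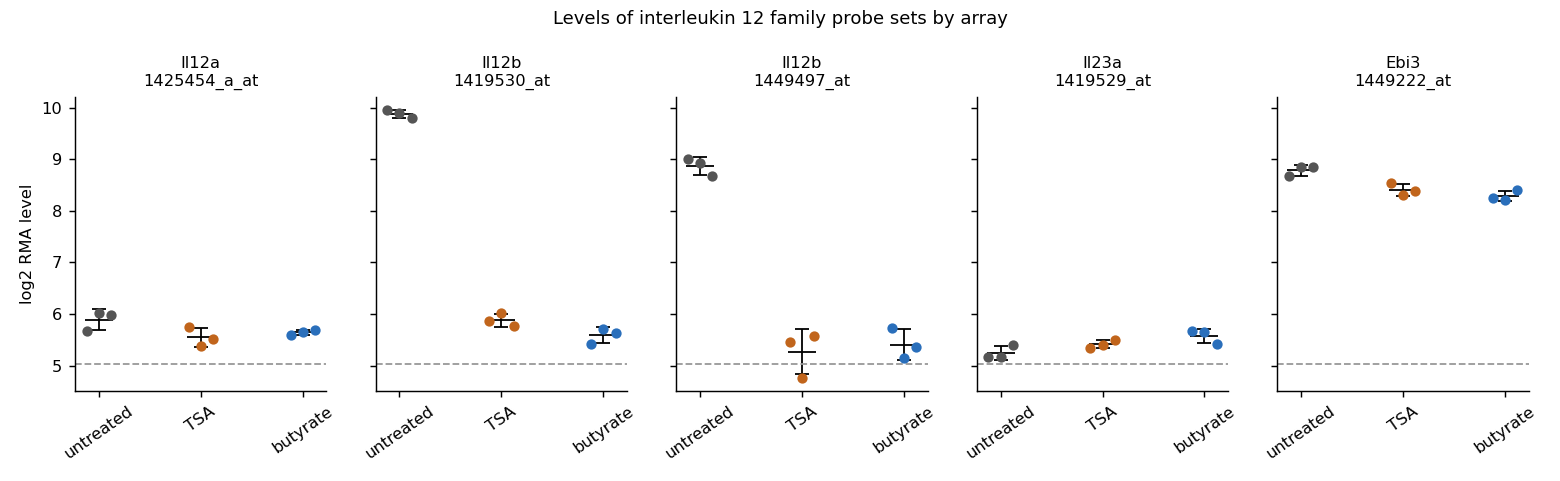
Log2 RMA level (y axis) of each IL-12 family probe set in untreated, TSA and butyrate samples; points are single arrays, bars the mean ± SD of 3 arrays, and the dashed line the mean over arrays of the 25th percentile of all probe sets. The Il12b panels drop from 9.88 and 8.87 in untreated samples to between 5.27 and 5.88 in treated ones, while the mean changes of Il12a, Il23a and Ebi3 lie between −0.49 and 0.34.

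The treated levels of Il12b came close to the array floor, below which RMA values lose their order. A group was counted as near the floor where all 3 of its arrays lay at or below the 25th percentile of all probe sets on the same array, and none of the 15 group values of the family met this. The dimmer Il12b probe set lay below that percentile on 1 of 3 TSA arrays, replicate 2, at percentile 20.4. A stricter reference, the 90th percentile of 64 olfactory and vomeronasal receptor probe sets, also placed 0 of 15 group values wholly under it. It lay above 1 of 3 butyrate values of the brighter and 2 of 3 of the dimmer Il12b probe set. RMA compresses values this low, so folds that end there are understated.

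**Figure D2:**
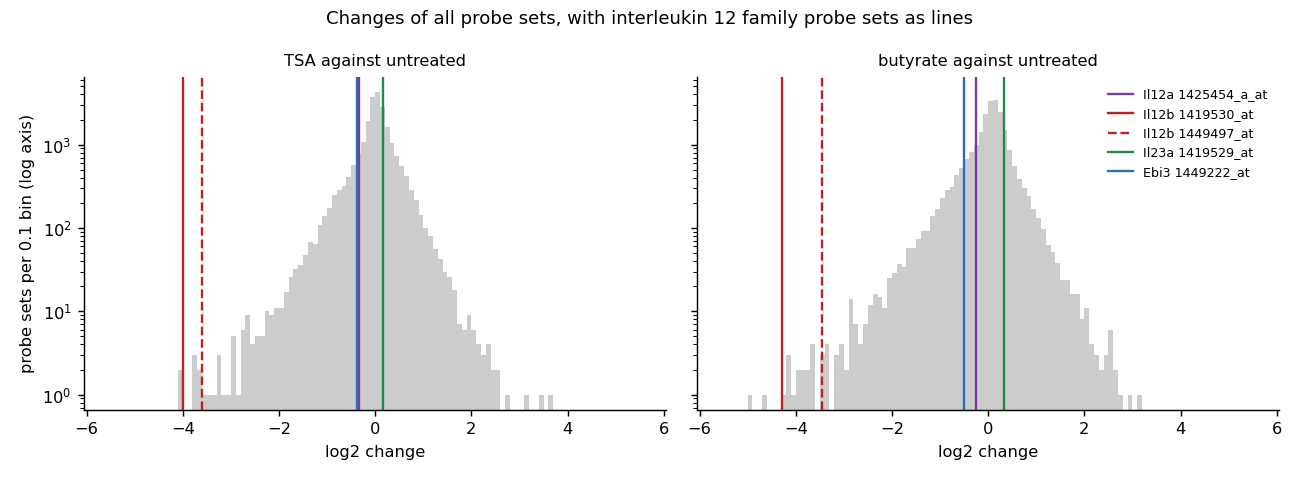
Number of probe sets (log y axis) by log2 change (x axis, bins of 0.1) for TSA and butyrate against untreated, with family probe sets as vertical lines. The Il12b lines stand at the far left, from −4.29 to −3.46, and the lines of the other subunits lie inside the bulk.

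Across the family, 4 of 5 probe sets were called lower and 0 higher with TSA at a limma adjusted p under 0.05 (0 higher also at an unadjusted p under 0.05), where 42.9% of all probe sets were called, 19.4% lower and 23.5% higher. Their median change was −0.39, against 0.02 over all probe sets. With butyrate 3 were called lower and 1 higher, where 53.6% were called, 23.2% lower and 30.4% higher, and the median change was −0.49 against 0.07. Il12b enters these counts by 2 probe sets. By the brightest probe set of each gene 3 of 4 genes were called lower with TSA, against 20.5% of all genes. With butyrate 2 were called lower and 1 higher, against 24.5% and 32.6%. Both comparisons use the same untreated arrays. Between butyrate and TSA 1 of 5 was called, lower with butyrate, where 29.6% were called, 17.0% lower and 12.6% higher. With calls this common, the call itself says little about a member, and the members differ mainly in the size of their change.

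Butyrate and TSA were set against each other directly, with their doses unknown. The brighter Il12b probe set was 1.22-fold lower with butyrate, a change of −0.29 ± 0.088 (limma adjusted p = 0.0342). This call was lost without TSA replicate 1 (limma adjusted p = 0.0757), TSA replicate 2 (0.117), butyrate replicate 1 (0.110) or butyrate replicate 3 (0.0524). On the hybridization spike-in scale the change was −0.67. The dimmer probe set differed in sign, at 0.14 ± 0.210 (95% interval −0.33 to 0.61), and was not called (limma adjusted p = 0.651). It turned to −0.24 on that scale, where the median over all probe sets was −0.35. The probe sets of Il12b thus gave no common direction between the inhibitors on the deposited scale.

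Il12a, the p35 partner of p40 in IL-12, changed far less. Its single probe set (1425454_a_at) read 5.66, 6.03 and 5.98 in untreated samples, 5.75, 5.37 and 5.51 with TSA, and 5.59, 5.64 and 5.70 with butyrate. Its groups overlapped: TSA replicate 1 and butyrate replicate 3 lay above untreated replicate 1. The change with TSA was −0.35 ± 0.112 (1.27-fold lower, limma adjusted p = 0.0301). That call was lost without TSA replicate 2 (limma adjusted p = 0.115), TSA replicate 3 (0.0806), untreated replicate 2 (0.110) or untreated replicate 3 (0.0900). It was also lost on the poly-A spike-in scale (limma adjusted p = 0.174), where the change was still −0.35. With butyrate the change was −0.25 ± 0.112 and was not called (limma adjusted p = 0.0891, 95% interval −0.50 to 0.00). It was called lower without untreated replicate 1 (−0.36, limma adjusted p = 0.0165), after a further quantile normalization (−0.33, 0.0348), and on the hybridization (−0.66, 9.42e-05) and poly-A (−0.56, 0.00672) spike-in scales. Butyrate and TSA differed by 0.10 ± 0.112 (95% interval −0.15 to 0.35, limma adjusted p = 0.540). On the hybridization scale the difference was −0.28 (limma adjusted p = 0.0407), where the median over all probe sets was −0.35. The Il12a levels, at percentiles 30.6 to 41.0 of their arrays, were low in every group.

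Il23a, the p19 subunit that p40 joins in IL-23, was the member that did not fall. Its probe set (1419529_at) read 5.17, 5.16 and 5.40 in untreated samples, 5.35, 5.40 and 5.50 with TSA, and 5.67, 5.65 and 5.42 with butyrate. The butyrate samples lay above all untreated ones by a gap of 0.03, and the TSA samples overlapped both groups. With TSA the change of 0.17 ± 0.087 was not called (limma adjusted p = 0.151), except without untreated replicate 3 (0.25, limma adjusted p = 0.0402). With butyrate Il23a rose by 0.34 ± 0.087, or 1.26-fold (limma adjusted p = 0.00825). The rise rests on the scale: it was −0.08 with hybridization spike-ins (limma adjusted p = 0.462) and 0.03 with poly-A spike-ins (0.923). Butyrate against TSA gave 0.17 ± 0.087 (95% interval −0.03 to 0.36, limma adjusted p = 0.179). On the hybridization scale it gave −0.22, where the median over all probe sets was −0.35. The Il23a values stood at percentiles 28.0 to 34.5, and 4 of 9 lay under the receptor reference.

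Ebi3, the subunit that IL-27 and IL-35 share, was well above the floor in every group. Its probe set (1449222_at) read 8.67, 8.84 and 8.85 in untreated samples, 8.53, 8.30 and 8.38 with TSA, and 8.26, 8.22 and 8.40 with butyrate. All treated samples lay below all untreated ones, and TSA and butyrate samples overlapped. Ebi3 fell by 0.39 ± 0.080 with TSA (1.31-fold, limma adjusted p = 0.00279). The call was lost on the poly-A spike-in scale (limma adjusted p = 0.113), where the change was still −0.39. With butyrate it fell by 0.49 ± 0.080 (1.41-fold, limma adjusted p = 0.000488), with changes of −0.91 after scaling to hybridization and −0.81 after scaling to poly-A spike-ins. The difference between butyrate and TSA was −0.11 ± 0.080 (95% interval −0.29 to 0.07, limma adjusted p = 0.343). On the hybridization scale it was −0.49 (limma adjusted p = 0.000504), where the median over all probe sets was −0.35.

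**Figure D3:**
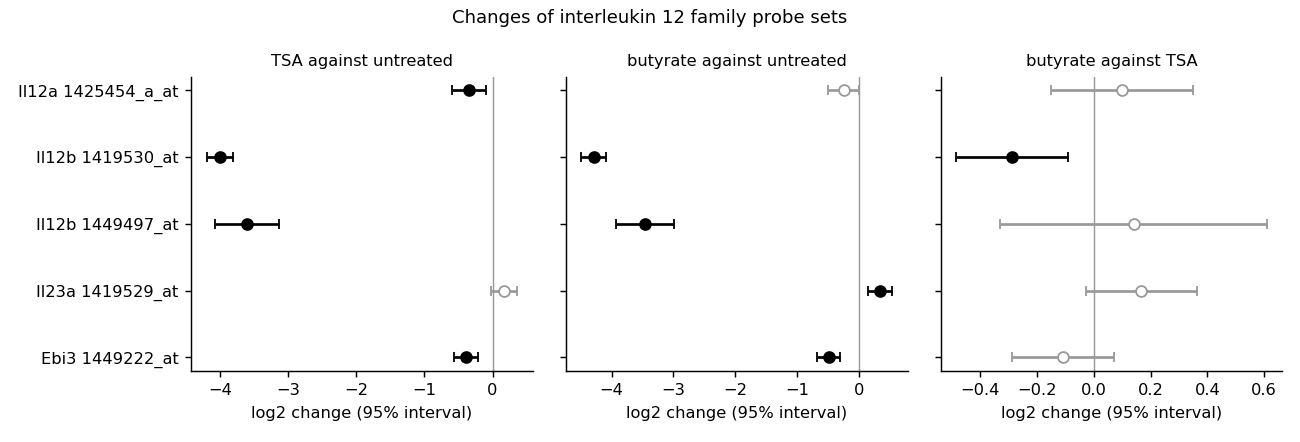
Log2 change (x axis) with limma's 95% interval for each family probe set in the 3 comparisons; filled points were called at an adjusted p under 0.05, and the x axes differ between panels. The Il12b points lie between −4.29 and −3.46 in the first 2 panels, and butyrate against TSA spans only −0.29 to 0.17.

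In each gene the untreated group and the treated groups can be put in order. For Il12b, untreated stood first on both probe sets, and the order of TSA and butyrate turned between the probe sets. For Ebi3 the order was untreated, TSA, butyrate, where the treated neighbours were not called different on the deposited scale. For Il12a it was untreated, butyrate, TSA, with overlap between untreated and each treated group. For Il23a it was butyrate, TSA, untreated, where neither pair of neighbours was called.

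A difference between subunits within an array is not moved by scaling that shifts a whole array, such as that to spike-ins. Il12b minus Il12a, partners in IL-12, was 4.28, 3.86 and 3.82 in untreated samples, 0.11, 0.64 and 0.24 with TSA, and −0.17, 0.06 and −0.06 with butyrate (log2, brighter Il12b probe set). The difference moved by −3.66 ± 0.217 (SE) with TSA and −4.04 ± 0.162 with butyrate, and the untreated arrays did not overlap the others. Il12b minus Il23a, partners in IL-23, moved by −4.17 ± 0.158 and −4.63 ± 0.180. Il12b minus Ebi3, a pair added after the data were seen, moved by −3.62 ± 0.155 and −3.80 ± 0.139. Each of these 6 shifts had p = 0.1 in an exact permutation test (two-sided), which is the lowest value that groups of 3 permit, and 0.113 after Benjamini-Hochberg adjustment over 9 tests. With the dimmer Il12b probe set the same shifts ran from −3.80 to −2.97. Il12a and Il23a stood low before treatment, at untreated means of 5.89 and 5.24. The brighter Il12b probe set ended near there, at 5.88 with TSA and 5.59 with butyrate. Neither partner could show a fall like that of Il12b, so their shifts mostly restate it. Ebi3, at 8.79 untreated, had room to fall.

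Between butyrate and TSA the same differences moved by −0.39 ± 0.173 (Il12a), −0.45 ± 0.171 (Il23a) and −0.18 ± 0.155 (Ebi3), with p of 0.1, 0.1 and 0.4 in the exact permutation test. The dimmer Il12b probe set gave 0.041, −0.027 and 0.25 (exact permutation p = 0.8, 0.8 and 0.5).

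**Figure D4:**
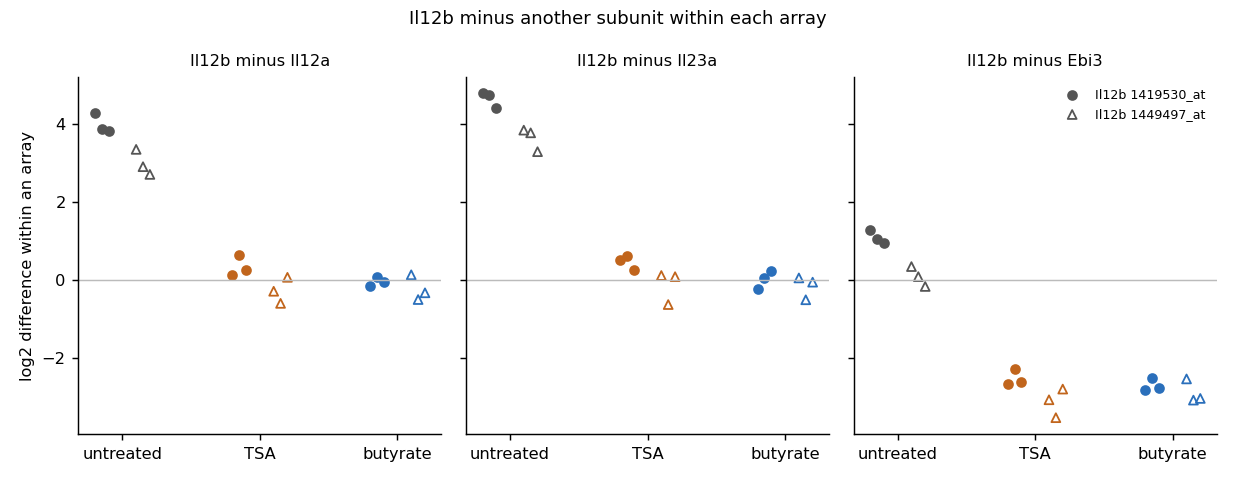
Log2 difference between Il12b and another subunit within each array (y axis) by group; circles use the brighter and triangles the dimmer Il12b probe set, 1 symbol per array. Every untreated symbol lies above every treated symbol of the same panel and probe set, with mean shifts from −4.63 to −2.97.

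The genes whose pattern came closest to that of Il12b were found by the root mean square difference of log2 values over the 9 arrays, after each probe set's untreated mean was subtracted, among 12116 other genes. Closest was Papss2, an enzyme that makes the sulfate donor PAPS, at 0.24; its untreated level of 9.42 ± 0.09 (SD, n = 3) compared with 5.71 ± 0.17 after TSA and 5.30 ± 0.13 after butyrate. Next came the neutrophil attractant Cxcl5 (0.35), the lectin receptor Clec4n (dectin-2, 0.35), Pdcd1lg2, the gene of PD-L2, a ligand that inhibits T cells (0.39), and the phospholipase Pla2g7 (0.47). All 5 were lower with both treatments, with changes from −3.76 (Pdcd1lg2) to −3.50 (Pla2g7) with TSA and from −4.90 (Pla2g7) to −3.77 (Pdcd1lg2) with butyrate. The arrays fall into separate groups, so no correlation is given. The other members did not reach the change of 1 log2 unit between groups that the rule asks for.

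The receptors of the family were taken as 5 chains, of which 4 were measured, each by its brightest probe set. With TSA 3 of 4 fell and 0 rose, where 46.3% of 12393 genes were called, 20.5% lower and 25.8% higher. The median change was −0.28 against 0.03 over all genes. On the poly-A scale 1 of 4, Il6st, was called lower, where 2344 of 22626 probe sets were. Il6st (gp130), the signal chain of the IL-27 receptor and of IL-6, fell by 0.76 ± 0.058 with TSA (limma adjusted p = 2.65e-06) and 1.36 ± 0.058 with butyrate (4.39e-08). Il27ra, the chain specific to IL-27, fell by 0.30 ± 0.077 with TSA and 0.20 ± 0.077 with butyrate. Il12rb1, the chain that the IL-12 and IL-23 receptors share, was low before treatment. It read 5.07 ± 0.13 (SD, n = 3), where the 25th percentile of the untreated arrays was 4.97 to 5.01. It fell by 0.26 ± 0.071 with TSA to 4.81, counted as near the floor, and rose by 0.44 ± 0.071 with butyrate to 5.50. The rise was 0.02 and not called on the hybridization scale (limma adjusted p = 0.862). Il12rb1 was higher with butyrate than with TSA by 0.69 ± 0.071 (limma adjusted p = 0.000125), a call lost on the poly-A scale (0.38, limma adjusted p = 0.0972). With butyrate 2 of 4 chains fell and 1 rose, with a median of −0.23 against 0.08. Of all genes 57.2% were called, 24.5% lower and 32.6% higher. On both spike-in scales 3 chains fell and 0 rose. There 15560 (hybridization) and 6351 (poly-A) of 22626 probe sets were called lower.

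Of the kinases and STAT proteins that these receptors use, 5 of 6 were measured, and 4 fell with TSA and 2 with butyrate, with none rising, against 20.5% and 24.5% of all genes that fell. Stat4, the main transducer of IL-12, fell by 0.91 ± 0.056 with TSA and 1.02 ± 0.056 with butyrate (limma adjusted p = 6.77e-07 and 2.34e-07). Jak2, a kinase bound to the IL-12 and IL-23 receptors, fell by 0.40 ± 0.044 and 0.61 ± 0.044. Stat3 and Tyk2 fell with TSA by 0.28 and 0.22; with butyrate their changes of 0.00 and −0.11 were not called. On the poly-A spike-in scale 1 of 5, Stat4, was called lower with TSA, where 2344 of 22626 probe sets were. On the hybridization scale 5 of 5 were called lower with butyrate, where 15560 of 22626 probe sets were.

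Transcription factors known to act on genes of the family were mostly lower. The list was chosen with earlier results of these data known, and a link of these changes to Il12b was not tested. With TSA 13 of 20 measured fell and 0 rose, where 20.5% of all genes fell and 25.8% rose. Their median change was −0.44. On the poly-A scale 10 fell, where 2344 of 22626 probe sets did. The NF-kB subunit Relb changed most, by −2.24 ± 0.050, and the change was −1.05 ± 0.062 in Rel, the c-Rel subunit tied to Il12b (limma adjusted p = 3.33e-09 and 4.97e-07). Irf7, of the interferon response, fell by 1.39 ± 0.098 and Cebpb, a C/EBP factor, by 1.12 ± 0.061. Irf8 and Irf4, factors of DC lineages, were not called with TSA, at −0.10 ± 0.057 and 0.00 ± 0.054.

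With butyrate 11 of these 20 factors fell and 4 rose, where 24.5% of all genes fell and 32.6% rose. Their median change was −0.36. On the hybridization scale 17 fell and 2 rose, where 15560 of 22626 probe sets fell and 1451 rose. Relb fell by 2.38 ± 0.050, Rel by 1.74 ± 0.062 and Spi1 (PU.1), a factor of myeloid cells, by 1.45 ± 0.051 (limma adjusted p = 1.38e-09, 1.55e-08 and 1.49e-08). Fos, a part of AP-1, rose by 1.81 ± 0.098 (limma adjusted p = 2.01e-07). On the deposited scale Irf4 and Irf8 also stood higher with butyrate. Irf4 read 8.40 ± 0.03 (SD, n = 3) against 7.72 ± 0.06 untreated, and Irf8 11.91 ± 0.04 against 11.70 ± 0.10. Between butyrate and TSA 8 factors were higher and 3 lower with butyrate, where 33.3% of genes were called, 14.2% higher and 19.1% lower. On the hybridization scale this turned to 3 higher and 11 lower, where 157 of 22626 probe sets were called higher and 17508 lower. Fos (1.59 ± 0.098), Irf7 (0.71 ± 0.098) and Irf4 (0.69 ± 0.054) were higher on both scales, at 1.21, 0.32 and 0.30 on the hybridization scale, and Rel (−0.69 ± 0.062) was lower on both. On the poly-A scale Irf7 and Irf4 were not called (limma adjusted p = 0.0833 and 0.105).

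Receptors and adaptors that lead to Il12b in DC fell in 7 of 13 measured genes and rose in 2, with TSA as with butyrate, with medians of −0.32 and −0.31; over all genes 20.5% fell and 25.8% rose with TSA, and 24.5% and 32.6% with butyrate. Cd40, through which T cells make DC secrete IL-12, changed by −1.50 ± 0.054 with TSA and −1.38 ± 0.054 with butyrate (limma adjusted p = 3.53e-08 and 2.72e-08). Tlr7, a sensor of single-stranded RNA, changed by −1.41 ± 0.128 and −1.79 ± 0.128. Irak1, a kinase of Toll-like receptor signalling, changed by −1.35 ± 0.055 and −1.63 ± 0.055. Ifngr1, a chain of the receptor for interferon-gamma, rose by 0.65 ± 0.050 with TSA and 0.39 ± 0.050 with butyrate; its partner Ifngr2 changed by −0.49 ± 0.113 and −0.71 ± 0.113. On the hybridization scale 10 of 13 fell and 0 rose with butyrate, where 15560 of 22626 probe sets fell and 1451 rose.

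**Figure D5:**
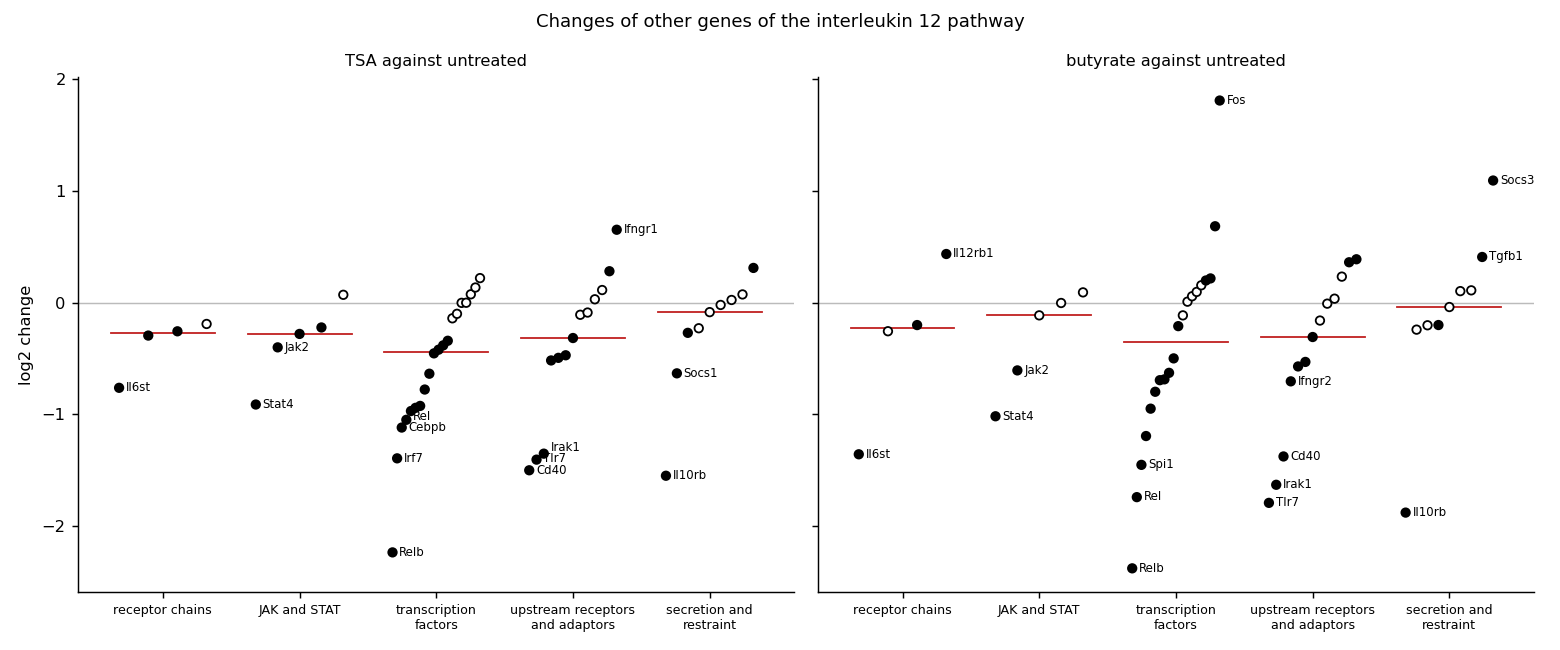
Log2 change (y axis) of each measured gene of 5 pathway lists with TSA and butyrate against the same untreated arrays; filled points were called at an adjusted p under 0.05, red lines are list medians, and labels name genes described in the text. Relb is the lowest point in both panels, at −2.24 and −2.38, and Fos the highest with butyrate, at 1.81.

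The labelled cell type was checked against markers. All 7 DC markers (Itgax, Flt3, Zbtb46, Ciita, Cd74, H2-Ab1 and H2-Aa) lay above the floor in every group, with a mean level per array of 11.8 without treatment, 11.4 after TSA and 11.3 to 11.4 after butyrate. With TSA 5 of 7 fell and 0 rose, where 20.5% of all genes fell, and with butyrate 4 fell and 0 rose, where 24.5% did, the largest falls being Itgax with TSA (−0.99 ± 0.063) and Ciita with butyrate (−0.97 ± 0.046). On the hybridization scale 7 of 7 fell with butyrate, where 15560 of 22626 probe sets did. The median of these 7 markers moved from −0.63 to −1.05. Of the markers of CD8-type DC, a strong source of IL-12, 3 of 6 fell with TSA (median −0.22), and with butyrate 4 fell and 1 rose (−0.44). For CD11b-type DC 3 of 5 fell with either treatment and 0 rose with TSA and 1 with butyrate (medians −0.37 and −0.31). Plasmacytoid DC markers fell in 4 and 5 of 5 (medians −0.52 and −0.73). With butyrate on the hybridization scale 5 of 6 CD8-type markers fell and 0 rose, and 4 of 5 CD11b-type markers fell and 1 rose. With TSA on the poly-A scale 2 CD8-type, 2 CD11b-type and 3 plasmacytoid markers fell, and 4 of the 7 DC markers. There 2344 of 22626 probe sets were called lower.

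Markers of other cells that CD11c beads can carry along moved beside the fall of Il12b. Over all genes 20.5% were called lower and 25.8% higher with TSA, and 24.5% and 32.6% with butyrate. Of macrophage and monocyte markers 6 of 6 fell with both treatments (medians −0.98 and −0.99). The mean level of these 6 markers was 8.62 to 8.78 in untreated, 7.63 to 7.80 in TSA and 7.39 to 7.58 in butyrate arrays. Fcgr1 was near the floor in treated groups. Neutrophil markers fell in 4 of 6 with TSA and 0 rose; with butyrate 3 fell and 2 rose (medians −0.55 and −0.21, mean level 11.9 in untreated, 11.2 to 11.3 in TSA and 11.5 in butyrate arrays). The largest changes of markers that fell were −2.38 in the plasmacytoid and gut-homing receptor Ccr9 and in the monocyte marker Cd14, both with butyrate, and −2.14 in the neutrophil gene Camp with TSA. B cell markers fell in 3 and 2 of 5 and T cell markers in 3 and 0 of 5, with none rising; mean levels were 6.66 to 6.72 and 6.61 to 6.71 in untreated, 6.26 to 6.32 and 6.36 to 6.48 in TSA, and 6.40 to 6.47 and 6.61 to 6.62 in butyrate arrays. NK cell markers fell in 1 of 4 with each treatment (medians −0.05 and −0.04), plasma cell markers in 2 and 1 of 3 and erythroid markers in 2 and 1 of 3, and in each of these lists 1 marker rose with butyrate and 0 with TSA. Counts for these cells with butyrate rest on the scale. On the hybridization scale 6 of 6 neutrophil, 5 of 5 B cell, 5 of 5 T cell and 3 of 4 NK cell markers fell. So did 3 of 3 plasma cell and 2 of 3 erythroid markers, and 0 rose in these lists. Over all probe sets 15560 of 22626 fell there and 1451 rose. With TSA on the poly-A scale 2 of 5 B cell and 0 of 5 T cell markers fell, where 2344 of 22626 probe sets did. The macrophage and monocyte count was 6 of 6 lower on both spike-in scales with either treatment. Of the 4 B16 melanoma markers measured, Tyr, Tyrp1 and Dct were near the floor in all groups, while Pmel was above it, at 5.72 ± 0.10 (SD, n = 3) without treatment, 5.61 ± 0.05 with TSA and 5.98 ± 0.12 with butyrate. On the deposited scale Dct was called higher with TSA (0.28) and Pmel with butyrate (0.26), and on the hybridization scale 0 of 4 were called higher with either. The part of these cell types in the fall of Il12b was not tested.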

How the data were processed

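Total RNA of 9 mouse DC samples was labelled with biotin and measured on Affymetrix arrays, per the labels' protocols. The deposited values are log2 levels that the authors computed by RMA (background correction, quantile normalization and median polish), according to the tool named per the submitters' processing notes; its program and version were not given in the sources used here. RMA compresses changes of dim probe sets. Of 22690 probe sets, 64 were controls, 691 had several symbols and 1555 had none here. The 22626 that are not controls were fitted with limma 3.58.1 in R 4.3.3, with 1 mean per group over 9 arrays (3 per group, which limits the precision), and Benjamini-Hochberg adjustment of p-values covered all of them; a call is an adjusted p under 0.05. Errors after log2 changes are limma standard errors. The fit was tested on simulated data.

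Members and lists were chosen with earlier results of these data known. All member probe sets are named, and up to 4 called genes per pathway list with the largest changes. Further genes given as not called were chosen after their values were seen (Irf8 and Irf4 with TSA, Tyk2 and Stat3 with butyrate, and Il10, Hsp90b1 and Calr). So were the levels of Irf4 and Irf8 with butyrate, markers named with values, and Ifngr1 and Ifngr2 in the comparison where the rule did not pick them. Lists use each gene's brightest probe set. List genes without such a probe set and the planned difference of Ebi3 and Il27 were not analysed here. Within-array differences were compared with exact two-sided permutation tests. Alternatives were other scalings, filters, variance models, sample subsets and the replicate number as a block.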

Additional observations from a re-analysis of the deposited data

How the results depend on the processing

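Il12b kept its fall and its call in every alternative run for which it had a value, from −4.07 to −3.94 with TSA and −4.71 to −4.21 with butyrate for the brighter probe set, and −3.76 to −3.35 and −3.88 to −3.33 for the dimmer one. The number of member probe sets called with TSA was 4, and 2 after scaling to poly-A spike-ins. On that scale 2344 of 22626 probe sets were called lower and 2265 higher. Only the Il12b brighter probe set and Ebi3 lie above the median level, so with that filter 2 were tested and called with TSA and 2 with butyrate. Leaving out 1 array gave 3 to 4 calls with TSA, 4 to 5 with butyrate and 0 to 1 between them. Between butyrate and TSA 3 were called lower on the hybridization scale, where 17508 of 22626 probe sets were. When only those groups were fitted 0 were called, and the Il12b change of −0.29 had a limma adjusted p of 0.0536. Fits of only the compared groups (0.0567) or with the replicate block (0.0528) also ended the Il12a call with TSA. Reversed values on the hybridization scale were −0.079 for Il23a with butyrate, and −0.28 (Il12a), −0.24 (dimmer Il12b) and −0.22 (Il23a) for butyrate against TSA. On the poly-A scale the last 3 were −0.21, −0.17 and −0.14. For butyrate against TSA the median over all probe sets was −0.35 on the hybridization and −0.28 on the poly-A scale. For the dimmer Il12b probe set, butyrate against TSA ran from −0.11 (without TSA replicate 2) to 0.30 when 1 array was left out. The cause was not tested.

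With the dimmer in place of the brighter Il12b probe set, the shifts of Il12b minus Il12a were −3.26 (TSA), −3.22 (butyrate) and 0.041 (butyrate against TSA), those of Il12b minus Il23a −3.77, −3.80 and −0.027, and those of Il12b minus Ebi3 −3.22, −2.97 and 0.25. Without 1 array the shifts with the brighter one ran from −3.81 to −3.51, −4.13 to −3.90 and −0.50 to −0.23 (Il12a), −4.29 to −4.07, −4.75 to −4.50 and −0.56 to −0.33 (Il23a), and −3.74 to −3.52, −3.89 to −3.70 and −0.28 to −0.06 (Ebi3).

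Arrays that share a replicate number did not deviate together throughout (r from −0.10 to 0.32 over 9 pairs), and an array matched its own number best in 6 of 18 cases, so the numbers were not used as pairs. With the replicate block 3 member probe sets were called with TSA, 4 with butyrate and 1 between them. Nearness to the floor limits Il12a, Il23a and treated Il12b.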

Other observations

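Among genes that restrain IL-12 or serve its folding and secretion, changes ran both ways on the deposited scale. Of 9 genes 3 fell and 1 rose with TSA (median −0.09, against 0.03 over all genes, where 46.3% were called), and 2 fell and 2 rose with butyrate (median −0.04 against 0.08, with 57.2% called). On the hybridization scale 7 fell and 1 rose with butyrate (median −0.46). There 15560 of 22626 probe sets fell, and their median was −0.34. On the poly-A scale 4 of the 9 genes fell and 1 rose, where 6351 of 22626 probe sets fell. Il10rb, a chain of the receptor for IL-10, the cytokine that restrains IL-12, fell by 1.55 ± 0.060 with TSA and 1.88 ± 0.060 with butyrate (limma adjusted p = 4.95e-08 and 9.12e-09). Socs3, an inhibitor of cytokine signalling, rose by 1.09 ± 0.065 with butyrate (limma adjusted p = 3.98e-07) and was not called with TSA (−0.09 ± 0.065, 0.346); it was higher with butyrate than with TSA by 1.18 ± 0.065 (limma adjusted p = 9.30e-06). Socs1, a further inhibitor, changed by −0.63 ± 0.140 with TSA. Il10 itself was near the floor in all groups, at 3.93 to 4.16.

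The chaperones Hsp90b1 (gp96) and Calr, which act on secreted proteins in the endoplasmic reticulum, were not called with either treatment on the deposited scale, at 0.02 and 0.07 with TSA and 0.11 and 0.10 with butyrate; on the hybridization scale both were called lower with butyrate, at −0.31 and −0.31. Canx, a further chaperone, changed by −0.20 ± 0.048 with butyrate (limma adjusted p = 0.00529; −0.10 and not called after a further quantile normalization, 0.0966) and was not called with TSA (−0.02 ± 0.048, 0.775). Tgfb1 rose by 0.31 ± 0.048 with TSA and 0.41 ± 0.048 with butyrate, and the latter was −0.01 and not called on the hybridization scale. On the poly-A scale neither was called (limma adjusted p = 0.271 and 0.696).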
